A study of Macaca fascicularis with 7 samples.

Results

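The SLC25A genes encode the mitochondrial carriers, small membrane proteins that move nucleotides, phosphate, organic acids, amino acids, cofactors and metals across the inner mitochondrial membrane. The family was picked with earlier results of these data known, and its members were then taken by symbol alone: every row named SLC25A and a number, apart from SLC25A20, gave 46 genes of the 28161 usable gene rows. Of these, 37 passed the filter on low counts and were tested, and 9 were too low to test. SLC25A24 was not analysed here.

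RNA was counted in 7 libraries of oocytes from the cynomolgus monkey, Macaca fascicularis, all of wild-type genotype. Of these, 2 came from immature oocytes still holding the germinal vesicle (GV), the large nucleus of meiotic prophase. Oocytes at metaphase II (MII) gave 2 libraries where they had matured in the animal (in vivo, IVO) and 3 where they had matured in culture (in vitro, IVM), with GV and IVO MII labelled as controls and IVM MII as treated. The labels give neither the number of oocytes in a library nor whether libraries came from separate animals, so p-values measure only the spread between these libraries, which may be technical.

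Carriers set what mitochondria can exchange with the cytosol. ADP/ATP carriers bring ADP in and let new ATP out, the phosphate carrier supplies phosphate to ATP synthase, and aspartate/glutamate and oxoglutarate carriers work in the malate-aspartate shuttle, which passes reducing equivalents into the organelle. Oocytes rely on mitochondria for most of their ATP. Fully grown oocytes resume meiosis with little or no transcription, so that their mRNA pool changes mainly through decay, storage and a changing poly(A) tail. Reverse transcription here started at the poly(A) tail, so the counts are of polyadenylated RNA.

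Library totals ranged from 22901970 to 29245733 counts. Levels are counts scaled to the library (CPM, from edgeR) with TMM-scaled library sizes, and CPM per kilobase of the deposited gene length where genes are compared with each other. All 12 oocyte markers were detected in every library, with summed levels of 15375 to 26327 CPM. Of the 15 cumulus and granulosa markers, 6 to 11 had a count in a library. The 15 summed to 361 to 491 CPM in IVM MII, above the 100.2 to 284 CPM of the other libraries. SERPINE2, called in no comparison, held 144, 214 and 392 CPM of the IVM MII sums and 80.2 to 265 CPM of the others. The order of the sums depends on this gene. Of the 6 of these markers that were tested, HAS2 and VCAN (10 and 8 counts in GV) rose in IVO MII against GV. TNFAIP6 and FSHR rose in IVM MII against GV. Of all tested genes 14.6% rose in IVO MII, and 18.5% rose and 17.8% fell in IVM MII. CYP19A1 (named LOC102117886 in the deposited counts) fell in IVM MII against GV, from 17 and 6 counts to 0 in every IVM MII library. In IVO MII it had 193 and 32 counts. Its differences between IVO MII and GV (edgeR adjusted p = 0.0763) and between IVM and IVO MII (0.0514) did not pass. Between IVM and IVO MII 0 of the 6 were called, beside 1.47% of all tested genes. AMH and PTX3 were at 0 counts in all libraries, and the 8 blood and immune markers summed to at most 1.12 CPM. The 12 stroma, theca and endothelium markers summed to 1093 and 1220 CPM in GV and to 74.0 to 128 CPM in MII libraries. Most of the GV sum came from VWF (991 and 1139 CPM), while COL3A1, LUM and PDGFRB were at 0 counts in all libraries. The part of these markers in the differences between groups was not tested. The labels also keep the alignments of the GV libraries in another folder than those of all MII libraries, so whatever the folders stand for and the kind of oocyte cannot be told apart. CPM are relative to the other RNA of a library, and in such libraries fewer cells of a type and less RNA per cell cannot be told apart.

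Together the 46 genes took 0.208% ± 0.0123 (SD, n = 2) of the counts in GV, with 0.167% ± 0.00384 (n = 2) in IVO MII and 0.166% ± 0.0192 (n = 3) in IVM MII. On the TMM-scaled CPM the sums were 1480 ± 56.6, 1857 ± 260.6 and 1942 ± 122.5 CPM. The share of raw counts was thus highest in GV and the scaled sum lowest there, and neither was tested. TMM multiplied the library size of GV replicate 1 by 1.42 and that of GV replicate 2 by 1.38. For MII libraries the multiplier lay between 0.766 (IVM MII replicate 1) and 0.985 (IVO MII replicate 2). Compared with raw shares, this raised every MII level relative to GV, so log2 fold changes against GV depend on the scaling. Fold changes without such scaling were not tested. In GV 40 and 42 of the 46 genes had at least 1 count, against 34 to 38 in MII libraries.

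**Figure D1:**
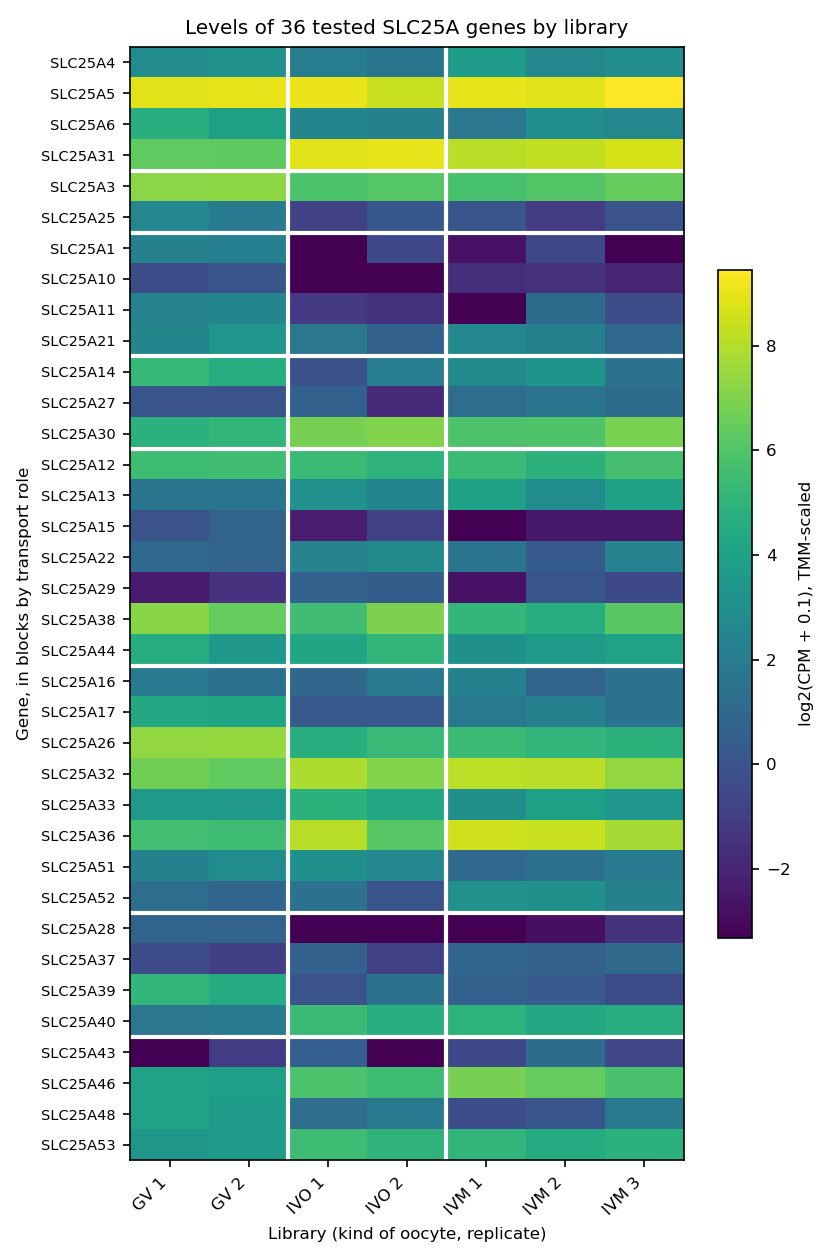
Heat map of log2(CPM + 0.1) for 36 of the 37 tested SLC25A genes (rows, in blocks by transport role) in the 7 libraries (columns). SLC25A5 is bright in every column, SLC25A31 and SLC25A40 are brighter in all MII columns than in GV, and SLC25A39, SLC25A17 and SLC25A26 are darker.

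Many carriers differed between GV and mature oocytes, in both directions. Against GV, 6 of the 37 tested carriers rose and 8 fell in IVO MII, or 16.2% and 21.6%, where 14.6% and 13.5% of all 16374 tested genes rose and fell. In IVM MII 8 rose and 9 fell, or 21.6% and 24.3%, against 18.5% and 17.8% of all genes. The calls (edgeR's quasi-likelihood test, Benjamini-Hochberg adjusted p under 0.05 over all genes) covered 37.8% of the carriers in IVO MII and 45.9% in IVM MII, beside 28.1% and 36.3% of all genes. The median log2 fold change was -0.24 for the carriers and -0.16 for all genes in IVO MII, and -0.15 and -0.10 in IVM MII. Every IVO MII library lay above both GV libraries for 11 of the 37 carriers and below them for 17, where 32.0% and 40.8% of all tested genes did so. In IVM MII these were 12 and 16 carriers, where 31.5% and 37.5% of all genes did so. Both comparisons use the same 2 GV libraries. SLC25A30, SLC25A31, SLC25A36, SLC25A40, SLC25A46 and SLC25A53 were called higher in both, and SLC25A3, SLC25A6, SLC25A14, SLC25A17, SLC25A26 and SLC25A39 were called lower in both.

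The number of calls changed when single libraries were left out, and in some runs it fell strongly among the carriers and among all genes. In other runs it rose. In IVM MII against GV it rose without either IVO MII replicate, and to 18 carriers without IVM MII replicate 3 (39.1% of all genes). In IVO MII against GV it fell from 14 carriers (28.1% of all genes) to 5 without GV replicate 1 (8.6% of all genes), to 6 without GV replicate 2 (9.8%) and to 6 without IVO MII replicate 1 (17.3%). In IVM MII against GV it fell from 17 carriers (36.3% of all genes) to 5 without GV replicate 1 (12.2%), to 7 without GV replicate 2 (14.7%) and to 10 without IVM MII replicate 1 (26.1%). No called carrier changed direction in any alternative run, and those called in every one were SLC25A17, SLC25A26, SLC25A31, SLC25A39 and SLC25A40 in IVO MII, and SLC25A26, SLC25A31, SLC25A39, SLC25A40 and SLC25A46 in IVM MII.

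**Figure D2:**
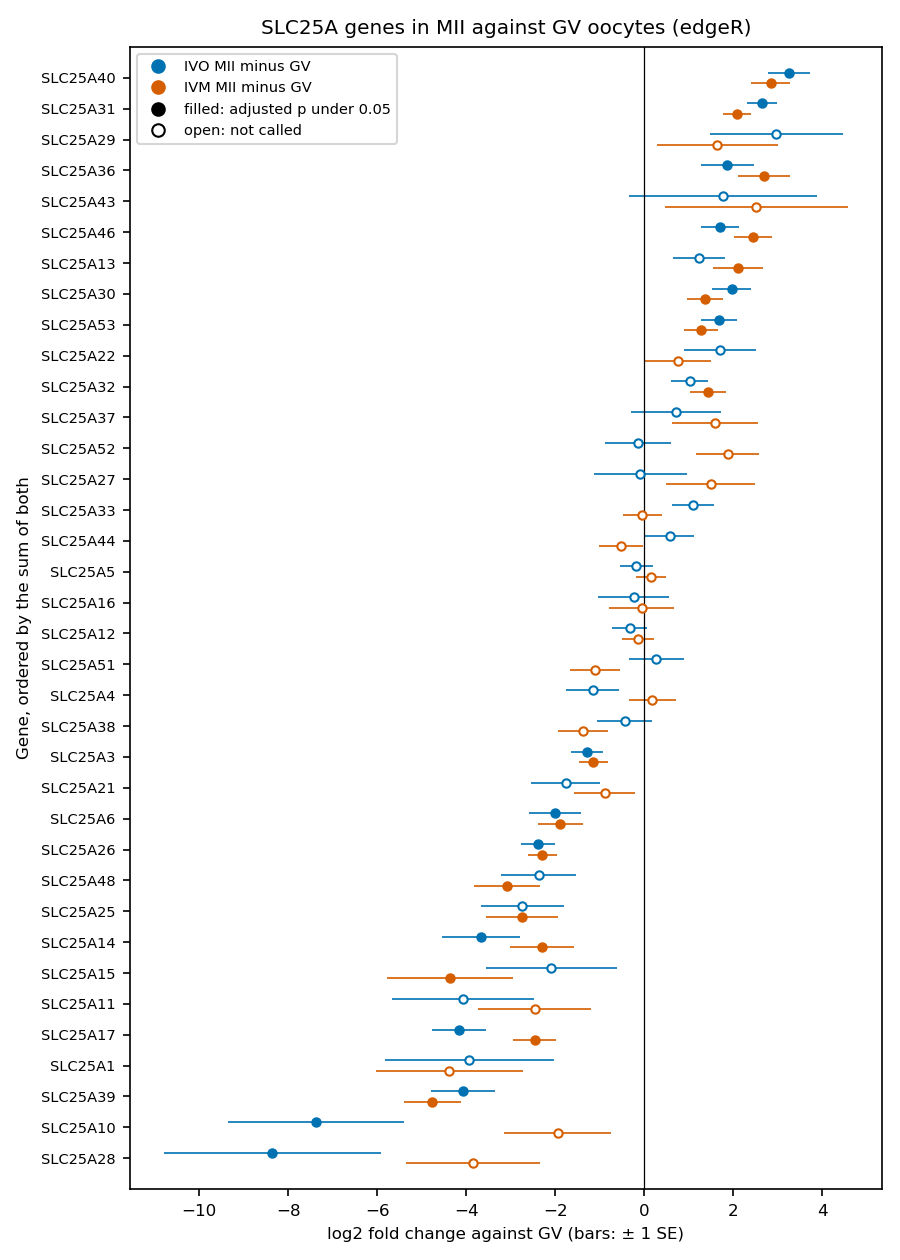
Log2 fold change against GV (x axis, bars ± 1 SE) for 36 of the tested SLC25A genes (y axis) in IVO MII (blue) and IVM MII (orange), filled where the edgeR adjusted p was under 0.05. SLC25A40 (3.25 and 2.84) and SLC25A31 (2.65 and 2.09) lie at the right, and SLC25A39 (-4.08 and -4.76) far to the left; the fitted values of SLC25A10 and SLC25A28 in IVO MII come from groups with 0 counts and depend on the prior count.

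Of the 4 ADP/ATP carriers, which together held 47.9% to 66.9% of the family's summed CPM per kilobase, 1 rose and 1 fell in each comparison with GV (median log2 fold change -0.67 in IVO MII and 0.17 in IVM MII). SLC25A31, the ADP/ATP carrier best known from the male germ line (chromosome 5, bases 126682509 to 126715344 on the unnamed build of the table), had 80.2 and 76.9 CPM in GV, 452 and 532 in IVO MII and 283, 313 and 410 in IVM MII. Every MII library lay above both GV libraries. It rose 6.26-fold in IVO MII (2.65 on the log2 scale, SE 0.34, adjusted p = 0.00211), and 4.27-fold in IVM MII (2.09, SE 0.32, adjusted p = 0.00224).

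SLC25A5, the ADP/ATP carrier of most growing tissues (chromosome X, bases 116172311 to 116175801), stood at 476 and 522 CPM in GV, 549 and 335 in IVO MII and 509, 452 and 702 in IVM MII. The groups overlapped, and its log2 fold changes of -0.18 (SE 0.37, adjusted p = 0.75) and 0.15 (SE 0.34, adjusted p = 0.749) did not pass the test, which does not show that its level was alike. SLC25A6, another widely expressed ADP/ATP carrier (on the unplaced scaffold Un_KE146180, bases 1829 to 7003), had 25.7 and 15.2 CPM in GV, 5.45 and 4.74 in IVO MII and 3.22, 7.48 and 5.90 in IVM MII. It fell by 2.01 on the log2 scale (SE 0.58, adjusted p = 0.0338) in IVO MII and by 1.88 (SE 0.51, adjusted p = 0.0208) in IVM MII, with no overlap between GV and MII libraries. In IVO MII the call was lost without any 1 of the 4 libraries compared, at adjusted p = 0.0826 to 0.251, and in IVM MII without GV replicate 1, GV replicate 2 or IVM MII replicate 1, at 0.0543 to 0.219. SLC25A4, the form of heart and skeletal muscle (chromosome 5, bases 184532729 to 184536803), had 6.98 and 8.60 CPM in GV, 3.97 and 3.01 in IVO MII and 13.1, 5.83 and 7.56 in IVM MII. It passed no test.

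Per kilobase, SLC25A31 made up 12.3% ± 0.809 (SD, n = 2) of the summed level of the 4 ADP/ATP carriers in GV, with 51.4% ± 11.4 (n = 2) in IVO MII and 35.9% ± 2.66 (n = 3) in IVM MII. SLC25A5 made up 81.8% ± 2.35, 47.4% ± 11.3 and 62.0% ± 2.65. In IVO MII the order of these genes was not settled: SLC25A31 stood at 253 ± 28.9 and SLC25A5 at 238 ± 81.8 CPM per kilobase, with SLC25A31 the higher in replicate 2 and SLC25A5 in replicate 1. In GV and IVM MII SLC25A5 was the higher in every library. These paralogs are close in sequence and have intronless copies in primate genomes, and how reads with several matches were counted is not given in the sources used here, so their split is uncertain.

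**Figure D3:**
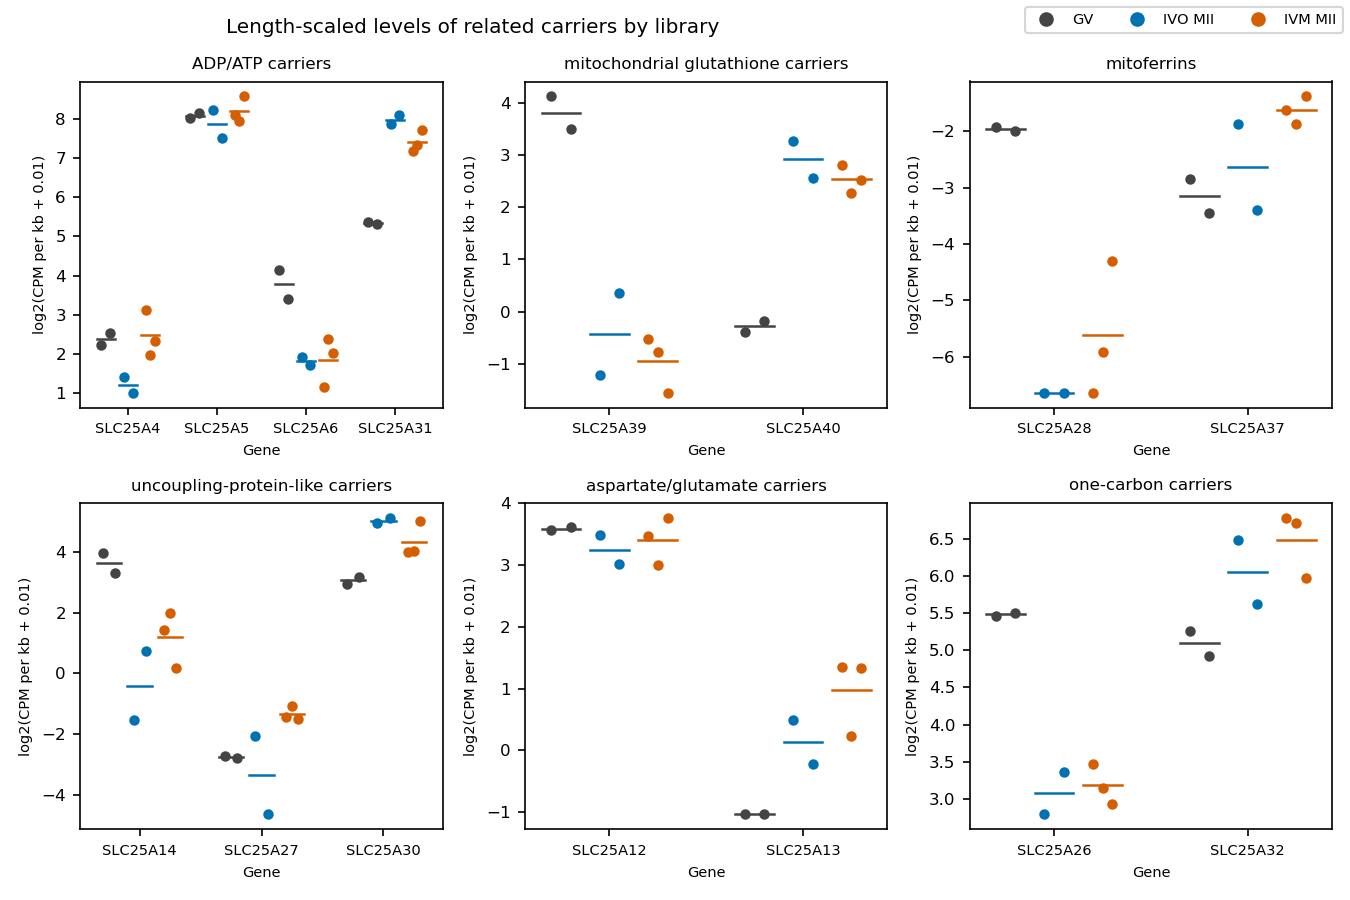
Levels of related carriers as log2(CPM per kilobase + 0.01) (y axis), with a point per library and a bar at the group mean of the log values, in 6 panels by substrate. In the glutathione panel SLC25A39 falls and SLC25A40 rises between GV (grey) and both MII groups (blue and orange), and in the ADP/ATP panel SLC25A31 rises to near the level of SLC25A5.

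Of the 4 phosphate and ATP-Mg/phosphate carriers 2 were tested, of which 1 fell in IVO MII and 2 in IVM MII (median -2.02 and -1.94). SLC25A3, the phosphate carrier that feeds ATP synthase, fell from 153 ± 1.23 CPM (SD, n = 2) in GV to 62.5 ± 8.61 (n = 2) in IVO MII (-1.29 on the log2 scale, SE 0.36, adjusted p = 0.0291) and to 69.2 ± 17.8 (n = 3) in IVM MII (-1.15, SE 0.32, adjusted p = 0.0237). The IVO MII call was lost without any 1 of the 4 libraries compared (adjusted p = 0.0546 to 0.146), and the IVM MII call without GV replicate 1 (0.141), GV replicate 2 (0.138), IVM MII replicate 1 (0.0759) or IVM MII replicate 2 (0.0670). Of the ATP-Mg/phosphate carriers, which adjust the adenine nucleotide pool of the matrix, SLC25A25 had 6.08 and 3.82 CPM in GV, 0.458 and 1.00 in IVO MII and 0.966, 0.380 and 0.865 in IVM MII. It fell in IVM MII (-2.74, SE 0.80, adjusted p = 0.0285), but not without GV replicate 1 (adjusted p = 0.266), GV replicate 2 (0.114) or IVM MII replicate 2 (0.0718). In IVO MII it did not pass (-2.75, SE 0.93, adjusted p = 0.0564). SLC25A23 had at most 12 counts in a library and SLC25A41 had 0 in all 7, and neither was tested.

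Of the 4 di- and tricarboxylate carriers 1 fell in IVO MII and 0 passed in IVM MII (median -4.00 and -2.20). SLC25A10, the dicarboxylate carrier (chromosome 16, bases 79352623 to 79361751), had 0.695 and 0.917 CPM in GV, 0 counts in both IVO MII libraries and 0.215, 0.253 and 0.150 CPM in IVM MII. Against 3 counts in each IVO MII library it was at least 6.00-fold lower there (edgeR adjusted p = 0.0287), a call lost without any 1 of the 4 libraries compared (adjusted p = 0.0715 to 0.229). SLC25A1, the citrate carrier, was at 4.59 ± 0.0956 CPM in GV and at 0 to 0.591 CPM in the 5 MII libraries, and SLC25A11, the oxoglutarate/malate carrier, at 5.32 ± 0.168 CPM in GV and 0 to 2.15 in MII. Every MII library lay below both GV libraries for these genes, yet with SEs of 1.28 to 1.90 neither passed (adjusted p = 0.0673 to 0.159). SLC25A21, the oxodicarboxylate carrier, had log2 fold changes of -1.76 and -0.89 and passed no test.

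Of the 3 carriers that resemble the uncoupling proteins, 1 rose and 1 fell in each comparison with GV (median -0.09 in IVO MII and 1.36 in IVM MII). SLC25A30 (chromosome 17, bases 24597475 to 24658687) had 28.3 and 33.7 CPM in GV, 114 and 129 in IVO MII and 58.6, 60.8 and 119 in IVM MII. It rose by 1.97 (SE 0.44, adjusted p = 0.0121) in IVO MII and by 1.36 (SE 0.41, adjusted p = 0.0304) in IVM MII. Neither call held without GV replicate 1 (adjusted p = 0.108 and 0.214) or GV replicate 2 (0.0753 and 0.138). SLC25A14 (chromosome X, bases 127227294 to 127262361) had 38.1 and 24.2 CPM in GV, 0.815 and 4.05 in IVO MII and 6.54, 9.80 and 2.74 in IVM MII. All MII libraries were below both GV libraries, and it fell by 3.67 (SE 0.89, adjusted p = 0.0167) and 2.29 (SE 0.72, adjusted p = 0.037). The IVO MII call was lost without GV replicate 1 (0.0740) or IVO MII replicate 1 (0.0588), and the IVM MII call without GV replicate 1 (0.195), GV replicate 2 (0.0788), IVM MII replicate 1 (0.0873) or IVM MII replicate 3 (0.0682). SLC25A27 stayed between 0.193 and 2.96 CPM and passed no test.

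Of 9 amino acid carriers 7 were tested; 0 were called in IVO MII, and 1 rose and 1 fell in IVM MII (median 0.57 and -0.15). SLC25A13, one of the paired aspartate/glutamate carriers of the malate-aspartate shuttle (chromosome 3, bases 115654041 to 115857178), had 2.99 and 3.0 CPM in GV, 8.76 and 5.32 in IVO MII and 15.8, 7.31 and 15.6 in IVM MII. It rose in IVM MII (2.11, SE 0.57, adjusted p = 0.0209), but not without GV replicate 1 (0.149), GV replicate 2 (0.140) or IVM MII replicate 1 (0.0572). In IVO MII it did not pass (1.23, SE 0.59, adjusted p = 0.146). Its partner SLC25A12, the higher per kilobase in every library, was at 45 ± 0.940 CPM in GV, with 35.9 ± 8.15 in IVO MII and 40.6 ± 10.5 in IVM MII, and passed no test. Per kilobase SLC25A13 made up 3.78% and 3.88% of the pair in GV and 9.54% to 18.6% in the MII libraries.

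SLC25A15, the ornithine carrier of the urea cycle, had 29 and 50 counts in GV, 2 and 12 in IVO MII and 0, 2 and 2 in IVM MII. It was called lower in IVM MII (-4.36, SE 1.41, adjusted p = 0.0407), a call at very low counts that was lost without any 1 of the 5 libraries compared (0.0585 to 0.330) and without the filter on low counts (0.0613). SLC25A38, the glycine carrier needed for haem synthesis, ranged from 24.8 to 144 CPM, SLC25A44, a carrier of branched-chain amino acids, from 8.31 to 33.5, SLC25A22, a glutamate carrier, from 1.14 to 6.63 and SLC25A29, a carrier of basic amino acids, from 0.0536 to 1.48. None of these was called. SLC25A2 and SLC25A18 had at most 8 and 7 counts in a library and were not tested.

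Of 10 nucleotide and cofactor carriers 9 were tested; 1 rose and 2 fell in IVO MII, and 2 rose and 2 fell in IVM MII (median -0.14 and -0.06). SLC25A26, which imports the methyl donor S-adenosylmethionine (chromosome 2, bases 121815227 to 121978794), had 169 and 173 CPM in GV, 26.4 and 39.2 in IVO MII and 42.2, 33.9 and 29.2 in IVM MII. All 5 MII libraries were far below GV, and it fell by 2.38 (SE 0.38, adjusted p = 0.00353) and 2.29 (SE 0.33, adjusted p = 0.00194). It shares 1303 exon bases with LRIG1 on the other strand, and whether counting used strand is not given in the sources used here, so part of its counts could belong to LRIG1. Exon bases were also shared by SLC25A21 with PAX9 (831), SLC25A22 with PANO1 (243), SLC25A27 with TDRD6 (215), SLC25A11 with RNF167 (90), SLC25A35 with RANGRF (27) and SLC25A32 with DCAF13 (18), which lowers the certainty of these carriers too. TDRD6 lies on the same strand as SLC25A27, and the other partners on the opposite strand to their carrier. SLC25A32, a carrier of folate (chromosome 8, bases 104563671 to 104579765), had 102 and 80.8 CPM in GV, 238 and 132 in IVO MII and 293, 279 and 167 in IVM MII. It rose in IVM MII (1.43, SE 0.40, adjusted p = 0.0233), a call lost without GV replicate 1 (0.109), GV replicate 2 (0.174), IVM MII replicate 1 (0.0707) or IVM MII replicate 2 (0.0621). In IVO MII it did not pass (1.02, SE 0.42, adjusted p = 0.0996).

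SLC25A17, a carrier of coenzyme A and related cofactors in peroxisomes (chromosome 10, bases 10346216 to 10399069), had 21.2 and 18.3 CPM in GV, 1.12 and 1.08 in IVO MII and 3.49, 4.65 and 2.59 in IVM MII. It fell by 4.16 (SE 0.60, adjusted p = 0.0028) in IVO MII and by 2.46 (SE 0.48, adjusted p = 0.00526) in IVM MII, where the call was lost without GV replicate 1 (0.0657). Its 3 groups did not overlap. The mitochondrial pyrimidine nucleotide carrier SLC25A36 (chromosome 2, bases 43092227 to 43130825) had 49.1 and 45.5 CPM in GV, 275 and 70.6 in IVO MII and 370, 329 and 214 in IVM MII. It rose by 2.68 (SE 0.58, adjusted p = 0.00853) in IVM MII, where the call was lost without GV replicate 1 (0.0579) or GV replicate 2 (0.0600). In IVO MII it rose by 1.87 (SE 0.59, adjusted p = 0.0443), and that value rests on replicate 1: without it the log2 fold change was 0.57 (adjusted p = 0.36). The IVO MII call was also lost without GV replicate 1 (0.169), GV replicate 2 (0.186), IVM MII replicate 1 (0.0623) or IVM MII replicate 2 (0.0678), and with RLE scaling (0.0589), limma voom (0.0692) or only the groups compared in the fit (0.0796).

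The related SLC25A33 was at 11.8 ± 0.502 CPM in GV, with 25.1 ± 6.90 in IVO MII and 11.4 ± 3.63 in IVM MII and was not called. SLC25A16, linked to coenzyme A transport, stayed between 1.61 and 4.77 CPM. The NAD carrier SLC25A51 and its close copy SLC25A52 were not called, and the coenzyme A carrier SLC25A42 had at most 10 counts in a library and was not tested.

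Of the 4 iron and glutathione carriers 1 rose and 2 fell in IVO MII, and 1 rose and 1 fell in IVM MII (median -1.68 and -1.13). SLC25A39, which imports glutathione into mitochondria (chromosome 16, bases 56113495 to 56119659), had 35.6 and 23.1 CPM in GV, 0.866 and 2.58 in IVO MII and 1.39, 1.18 and 0.677 in IVM MII. It was 16.9-fold lower in IVO MII (-4.08, SE 0.72, adjusted p = 0.00507) and 27.1-fold lower in IVM MII (-4.76, SE 0.63, adjusted p = 0.00166). Its paralog SLC25A40 (chromosome 3, bases 124165055 to 124220242) had 3.29 and 3.79 CPM in GV, 41.7 and 25.6 in IVO MII and 30.2, 21 and 25 in IVM MII. It rose by 3.25 (SE 0.47, adjusted p = 0.00278), or 9.49-fold, and by 2.84 (SE 0.44, adjusted p = 0.00244), or 7.16-fold. Per kilobase SLC25A40 made up 4.17% and 7.16% of the pair in GV and 82.4% to 95.8% in the 5 MII libraries. The pair was singled out after its values were seen.

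The mitoferrins, which bring iron into mitochondria, were both scarce. SLC25A28, the form of most tissues (chromosome 9, bases 98477591 to 98487899), had 54 and 49 counts in GV, 0 in both IVO MII libraries and 0, 1 and 7 in IVM MII. It was at least 11.8-fold lower in IVO MII against 3 counts in each library (edgeR adjusted p = 0.0383). That call was lost without any 1 of the 4 libraries compared (adjusted p = 0.0954 to 0.198). In IVM MII its log2 fold change of -3.85 (SE 1.5) did not pass (adjusted p = 0.0797). SLC25A37, best known from developing red cells, ranged from 0.442 to 2.03 CPM and passed no test.

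Of 8 members for which no substrate was assigned here 4 were tested; 2 rose in IVO MII, and 2 rose and 1 fell in IVM MII (median 1.69 and 1.86). SLC25A46, which sits in the outer membrane and shapes mitochondria (chromosome 6, bases 109462152 to 109489221), had 16.5 and 14.5 CPM in GV, 56.3 and 44.2 in IVO MII and 113, 86.0 and 54.6 in IVM MII. It rose by 1.70 (SE 0.43, adjusted p = 0.0198) and 2.44 (SE 0.42, adjusted p = 0.00331). The IVO MII call was lost without GV replicate 1 (0.118), GV replicate 2 (0.147) or IVO MII replicate 1 (0.0714). SLC25A53 (chromosome X, bases 101017437 to 101072896) had 10.8 and 12.9 CPM in GV, 44.0 and 31.8 in IVO MII and 34.2, 23.3 and 28.1 in IVM MII. It rose by 1.68 (SE 0.41, adjusted p = 0.0174) and 1.27 (SE 0.38, adjusted p = 0.0306). Both calls were lost without GV replicate 1 (0.165 and 0.249) or GV replicate 2 (0.113 and 0.160), the former also without IVO MII replicate 1 (0.0676) and the latter without IVM MII replicate 1 (0.0885).

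SLC25A48 (chromosome 6, bases 134899739 to 134950482) had 16.9 and 12.6 CPM in GV, 2.29 and 3.39 in IVO MII and 0.697, 0.972 and 3.5 in IVM MII. All MII libraries were below GV, and it was called lower in IVM MII (-3.09, SE 0.74, adjusted p = 0.0131), though not without GV replicate 1 (0.0869). In IVO MII it did not pass (-2.38, SE 0.84, adjusted p = 0.0639). SLC25A43 was at 0 counts in 2 libraries and reached 2.15 CPM in 1. SLC25A34 and SLC25A35 had at most 11 counts and 1 count in a library, SLC25A45 at most 2, and SLC25A47 had 0 counts in all 7 libraries.

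Maturation in culture was compared with maturation in the animal by setting IVM MII against IVO MII. By edgeR 0 of the 37 tested genes passed, against 1.47% of all genes, and 6 (16.2%) had an unadjusted p under 0.05, against 21.1% of all genes. The newer edgeR fit (4.73% of all genes) and limma voom (3.04%) also called 0 carriers, and DESeq2, which called 12.3% of all genes, called SLC25A17 alone. The median log2 fold change was 0.15 for the carriers and 0 for all genes. With SEs of 0.29 to 2.29 (median 0.56), the comparison does not show that the carriers were alike. The largest SE was that of SLC25A28, at 0 counts in both IVO MII libraries, and does not measure precision. Every IVM MII library lay above every IVO MII library for 6 of the 37 carriers, or below for 6, where 17.8% and 16.0% of all tested genes did so.

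**Figure D4:**
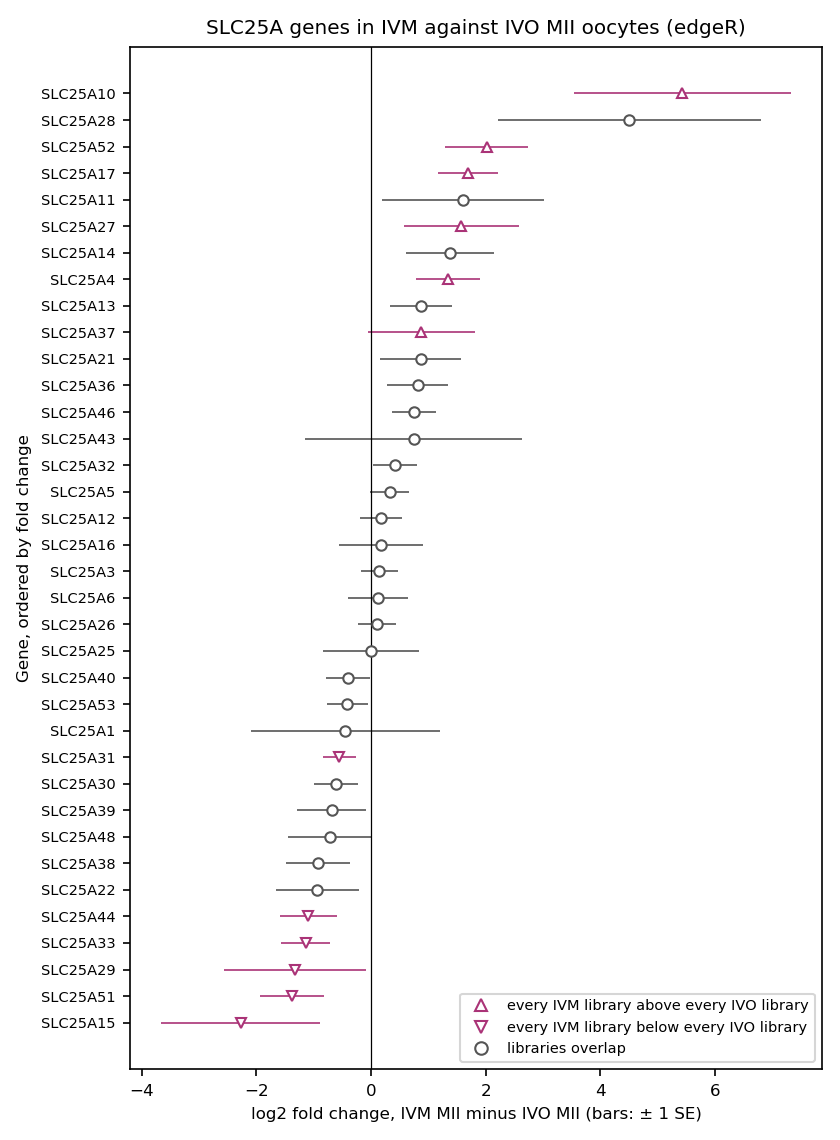
Log2 fold change of IVM MII minus IVO MII (x axis, bars ± 1 SE) for 36 of the tested SLC25A genes (y axis), with triangles where the libraries of both groups do not overlap. The triangles pointing up are SLC25A10, SLC25A52, SLC25A17, SLC25A27, SLC25A4 and SLC25A37, and none of the 36 genes plotted passed the adjusted test. The fitted values of SLC25A10 (5.43) and SLC25A28 (4.50) come from 0 counts in IVO MII and depend on the prior count. Against 3 counts in each IVO MII library, SLC25A10 was at least 1.54-fold higher in IVM MII, and SLC25A28 was not above that floor.

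SLC25A17 had the smallest adjusted p, with 2.59 to 4.65 CPM in IVM MII and 1.08 to 1.12 in IVO MII (a log2 difference of 1.70, SE 0.52, adjusted p = 0.12 by edgeR and 0.0213 by DESeq2). SLC25A4 was at 8.83 ± 3.79 CPM (SD, n = 3) in IVM MII and 3.49 ± 0.684 (n = 2) in IVO MII (1.34, SE 0.56, edgeR adjusted p = 0.217). SLC25A31 lay lower in all IVM MII libraries than in either IVO MII library (-0.55, SE 0.29, adjusted p = 0.304). SLC25A5, SLC25A6 and SLC25A32 overlapped between the groups, with log2 fold changes of 0.33, 0.12 and 0.41. Without IVO MII replicate 2 these became -0.07, -0.06 and -0.04, so none of the 3 had a stable direction, and that of SLC25A6 also turned negative with upper quartile scaling and without IVM MII replicate 2 (-0.16).

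The NAD carriers lay apart in opposite directions in this comparison, although neither gene was called. SLC25A52 had 8.58, 8.41 and 4.70 CPM in IVM MII and 2.70 and 0.887 in IVO MII (2.01, SE 0.72, edgeR adjusted p = 0.164), while SLC25A51 had 1.98, 2.45 and 3.91 against 8.51 and 6.01 (-1.38, SE 0.56, adjusted p = 0.209). Per kilobase SLC25A52 made up 56.2% to 82.2% of the pair in IVM MII, 13.6% and 25.3% in IVO MII and 19.7% and 33.7% in GV. SLC25A52 lies in 1 exon block on chromosome 18 (bases 50504206 to 50507507), and reads of these near-identical genes can be placed on either, so the split between them is uncertain. The pair was singled out after its values were seen.

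Genes that work beside the carriers were listed too. For their counts against GV, 14.6% of all tested genes rose and 13.5% fell in IVO MII. In IVM MII 18.5% rose and 17.8% fell. How the calls of these lists hold without single libraries is not given here. The other family genes, UCP1, UCP2, UCP3, MTCH1 and MTCH2, had 2 members tested, MTCH1 and MTCH2, with 0 called by edgeR in any comparison. Of these, 1 had an unadjusted p under 0.05 in IVM MII against GV, where DESeq2 and limma voom called MTCH2 (edgeR adjusted p = 0.0806), and 0 did so in the other comparisons. Of 13 tested channels and transporters of other families, 1 rose and 2 fell in IVO MII and 1 rose and 4 fell in IVM MII. ABCB10, an inner membrane transporter linked to haem synthesis, had 1.36 and 0.759 CPM in GV. It rose to 25.8 and 14.1 CPM in IVO MII (4.23, adjusted p = 0.00211) and to 39.5 to 49.9 in IVM MII (5.39, adjusted p = 0.00127). VDAC3, an outer membrane channel, fell by 3.63 and 3.29 (adjusted p = 0.00226 and 0.00148).

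Carrier proteins enter the inner membrane through the TIM22 translocase, aided by small chaperones of the intermembrane space. The 8 tested genes of this import route include the outer membrane genes TOMM20, TOMM40 and TOMM70A. Of the 8, 4 fell and 0 rose in IVO MII, beside 13.5% and 14.6% of all tested genes. In IVM MII 3 fell and 2 rose, beside 17.8% and 18.5% of all genes. TIMM22, the channel subunit, fell from 52.4 ± 3.12 CPM in GV to 2.63 ± 1.78 in IVO MII (-4.30, adjusted p = 0.00769) and 1.44 ± 1.00 in IVM MII (-5.17, adjusted p = 0.00205), and the receptor gene TOMM70A rose in IVM MII (2.33, adjusted p = 0.00693). Of 8 genes of the calcium uniporter complex and the calcium exchangers, 2 fell in IVO MII and 2 fell and 2 rose in IVM MII, with LETM1, an ion exchanger, at -3.89 (adjusted p = 0.00801) and MCUR1 at 2.44 (adjusted p = 0.017) in the latter. The malate-aspartate shuttle enzymes had 1 of 4 lower in IVO MII (MDH1, -2.60, adjusted p = 0.0426). In IVM MII 3 of 4 were lower, GOT1, GOT2 and MDH2, with MDH2 furthest (-3.37, adjusted p = 0.00845). MDH1 was not called in IVM MII (0.16, adjusted p = 0.88). Between IVM and IVO MII, edgeR called 0 of the 35 tested genes of these lists. Of the 35, 11 had an unadjusted p under 0.05, a larger share than the 21.1% of all genes. Of the same 35, limma voom called 0, the newer edgeR fit 1 (TIMM10B) and DESeq2 6, where they called 3.04%, 4.73% and 12.3% of all genes.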

How the data were processed

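The authors deposited 1 table of raw counts per gene for all 7 libraries, with each gene's length and exon coordinates per the file headers. The tools, per the submitters' processing notes, were Bowtie2 2.4.5, featureCounts 2.0.1, Trim Galore 0.6.7, DESeq2 and SAMtools 1.15.1. Tool order, strand setting, treatment of multiply matching reads and build are, for this table, not given in the sources used here. Since Bowtie2 aligns without splitting over introns, genes with intronless or near-identical copies are uncertain. Per the labels, cDNA was primed from the poly(A) tail and amplified by PCR, and no molecular identifiers are described.

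Lines broken in the table (10, of MACF1, NEB and TTN) were left out. Counts were scaled by TMM and tested with edgeR 4.0.16 (filterByExpr, quasi-likelihood test, all 7 libraries in 1 fit) in R 4.3.3. Of 28161 rows, 16374 were tested, with p-values adjusted over all of them by Benjamini-Hochberg and a threshold of 0.05. Fold changes against a group at 0 counts are bounds at 3 counts per library. SEs with edgeR are the absolute log2 fold change divided by the square root of the F statistic of its test. For genes at 0 counts in a group they depend on the prior count and do not measure precision. The scripts were tested on simulated counts. Alternatives were other scalings, no filter, DESeq2 1.42.0, limma 3.58.1 voom, edgeR's newer fit, only the groups compared, a replicate block and leaving out each library.

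Members are named under their roles, except 1 tested member that is counted but not reported here. Values in every library are given for the 4 ADP/ATP carriers, the 3 members with the highest length-scaled level and, in each comparison with GV, the 6 highest and 6 lowest called log2 fold changes; other members are given by range. Of listed companion genes, at most the highest and lowest called in a list are given with values. The family, its rule and the lists were chosen with earlier results of these data known.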

Additional observations from a re-analysis of the deposited data

How the results depend on the processing

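The comparison of IVM MII with IVO MII kept 0 called carriers under every alternative run except DESeq2, which called 1 (SLC25A17); leaving out each library in turn gave 0, but these runs called from 0 (without IVM MII replicate 1 or 2) to 1277 (without IVM MII replicate 3) of all genes and say little about stability. Against GV, leaving out each library gave 5 to 15 calls in IVO MII (main count 14) and 5 to 20 in IVM MII (main count 17), and the other alternatives gave 13 to 19 and 15 to 23. Whether replicate numbers pair the libraries was not settled. Deviations of same-numbered libraries from their group means correlated at -0.23 between GV and IVO MII, and at -0.17 and 0.11 between GV and IVM MII. Between IVO and IVM MII they correlated at 0.35 and -0.18. By the number in the alignment names, where IVO MII replicate 2 is number 3, the pairs of IVO and IVM MII correlated at 0.35 and 0.41. The deviations of 2 libraries of a group mirror each other, so these correlations are not independent and cannot decide on pairing. With the replicate block 0 carriers were called between IVM and IVO MII, where calls among all genes went from 1.47% to 7.56%. Against GV the counts were 13 in IVO MII and 15 in IVM MII. SLC25A10 and SLC25A28 in IVO MII and SLC25A15, SLC25A25, SLC25A30 and SLC25A53 in IVM MII were no longer called. Gained were 1 carrier in IVO MII (SLC25A48) and 2 in IVM MII. A block with the IVO MII numbers exchanged, chosen after seeing the data, gave 13. A replicate block on the numbers in the alignment names, also chosen after seeing the data, gave 0 carriers between IVM and IVO MII (5.08% of all genes). Against GV it gave 17 in IVO MII and 20 in IVM MII. SLC25A10 in IVO MII and SLC25A15 in IVM MII were lost, and 4 carriers were gained in each. In IVM MII against GV the all-gene median went from -0.10 with TMM to -0.24 with RLE on the log2 scale; no carrier changed sign under RLE or upper quartile scaling in the comparisons with GV, while SLC25A25, SLC25A26 and SLC25A6 did so between IVM and IVO MII with upper quartile scaling. Over all alternatives 12 carriers changed sign between IVM and IVO MII, 8 in IVO MII against GV and 6 in IVM MII against GV, none of them called in the comparison. Without IVO MII replicate 2, SLC25A39 went from -0.68 to 0.23 between IVM and IVO MII, and without IVO MII replicate 1 SLC25A26 went from 0.10 to -0.16. The 9 untested carriers had at most 12 counts in a library, too few to show a difference at this depth.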

Other observations

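Some carriers varied between replicates of both MII groups. IVO MII replicate 2 and IVM MII replicate 3 each held 11 counts of SLC25A34, which had 0 in the other MII libraries. SLC25A38 stood at 124 and 73.9 CPM in these libraries against 24.8 to 46.3 in the other MII libraries. These genes were singled out after their values were seen, and both libraries carry the number 3 in the alignment names the labels give. Deviations of this pair from their group means correlated at 0.41 across genes.

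Median gene length was greater for carriers that rose than for those that fell, as among all genes, but the carriers' ranges overlapped widely. In IVO MII they were 1949 to 4835 bases for those that rose and 1442 to 6434 for those that fell. In IVM MII they were 1949 to 6260 and 1442 to 5974 bases. In IVO MII against GV the median length was 4029.5 bases for the 6 carriers that rose and 2173.5 bases for the 8 that fell, beside 4302 and 1974.5 bases for all genes called in those directions. In IVM MII the medians were 4029.5 and 2452 bases for carriers and 4089 and 2136.5 bases for all genes. The part of length in the calls was not tested.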
